A study of Rattus norvegicus with 3 samples.

Results

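The deposited kidney tables marked 3678 of their 33194 records as long non-coding RNA, and 1399 of these (38.0%) had a locus that no other record shared and that lay outside the mitochondrial chromosome. The rule that picks the 1399 records uses that annotation and no measured value, and they are called lone long non-coding records here. The other long non-coding records shared a locus string with a protein-coding record (1208), shared one with other non-coding records only (1054) or lay on the mitochondrial chromosome (17). RNA was measured in 3 kidney libraries, 1 from each rat strain. Dahl S rats, which are salt-sensitive, were 53 days old, SHR rats (spontaneously hypertensive) were 55 days old, and Dahl R rats, which are salt-resistant, were 54 days old. All were weaned at 30 days and then ate a low-salt diet of 0.3%. The series set out to find long non-coding RNAs in the rat genome, and no high-salt group was analysed here. How many animals each library holds is not given, so strain, age and animal cannot be told apart.

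Long non-coding RNAs are transcripts without a long open reading frame. Some act in the nucleus on chromatin or on neighbouring genes, others act in the cytoplasm on RNAs and proteins, and many have no known role. In the genome they may stand far from any gene, start opposite the promoter of a coding gene, or lie just beyond its end. An RNA listed just beyond the end of a coding gene on the same strand may be a separate transcript or a longer form of the coding mRNA. The position and level of the neighbour are therefore given beside many of the records below. A record given without them may still have a coding gene near it. Dahl S rats become hypertensive on a high-salt diet, whereas SHR rats do so without added salt.

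No sequence of the lone long non-coding RNAs themselves was used here. The promoters below, 300 bases each from RefSeq (build GRCr8, 250 bases before to 50 after the listed start, all on the plus strand), are shown because the records they belong to carry the results. Snhg4 is a lone long non-coding record itself, and it is a host gene of small nucleolar RNAs. The other promoters are those of coding neighbours. Gpx3 ends beside the most abundant lone record, Ctsl (Ctsl1 in the tables) and Akr1b8 end beside records that were 2-fold apart between strains with limits apart, and Slco2a1 starts opposite such a record. Capitals mark matches to 3 promoter motifs on either strand, including overlapping matches. They are the core of the TATA box with the letters TATAAA, the box known by its letters CCAAT, and the GC-rich box with the letters GGGCGG. The windows are chr18:27432276-27432575 for Snhg4, chr10:39529085-39529384 for Gpx3, chr17:769854-770153 for Ctsl, chr4:63964171-63964470 for Akr1b8 and chr8:112467489-112467788 for Slco2a1.
Snhg4: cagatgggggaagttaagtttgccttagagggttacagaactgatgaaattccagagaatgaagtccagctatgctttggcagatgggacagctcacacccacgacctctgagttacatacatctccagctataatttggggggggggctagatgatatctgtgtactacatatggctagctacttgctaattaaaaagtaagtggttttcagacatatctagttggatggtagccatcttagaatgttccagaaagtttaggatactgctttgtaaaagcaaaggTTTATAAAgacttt
Gpx3: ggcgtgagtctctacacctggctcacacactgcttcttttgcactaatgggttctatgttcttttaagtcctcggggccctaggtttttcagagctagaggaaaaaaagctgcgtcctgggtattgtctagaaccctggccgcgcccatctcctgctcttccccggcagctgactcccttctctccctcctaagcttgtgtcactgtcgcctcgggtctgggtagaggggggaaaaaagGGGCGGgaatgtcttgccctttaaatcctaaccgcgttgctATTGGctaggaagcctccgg
Ctsl: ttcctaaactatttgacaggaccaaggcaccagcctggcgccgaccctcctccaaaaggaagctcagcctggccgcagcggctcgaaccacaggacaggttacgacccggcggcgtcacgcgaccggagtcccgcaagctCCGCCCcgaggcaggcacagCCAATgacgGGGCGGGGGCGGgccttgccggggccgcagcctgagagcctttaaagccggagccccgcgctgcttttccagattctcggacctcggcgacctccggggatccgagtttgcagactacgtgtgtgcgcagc
Akr1b8: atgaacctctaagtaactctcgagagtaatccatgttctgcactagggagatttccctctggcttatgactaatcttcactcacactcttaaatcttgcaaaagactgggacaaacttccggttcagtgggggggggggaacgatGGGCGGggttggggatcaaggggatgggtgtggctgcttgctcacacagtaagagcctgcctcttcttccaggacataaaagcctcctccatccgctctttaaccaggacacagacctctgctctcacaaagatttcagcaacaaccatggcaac
Slco2a1: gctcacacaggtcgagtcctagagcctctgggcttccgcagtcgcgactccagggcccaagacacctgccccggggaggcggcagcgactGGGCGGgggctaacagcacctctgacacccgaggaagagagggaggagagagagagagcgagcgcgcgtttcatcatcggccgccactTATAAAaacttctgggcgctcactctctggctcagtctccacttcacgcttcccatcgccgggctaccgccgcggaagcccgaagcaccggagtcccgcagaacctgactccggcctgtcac
Only the Snhg4 and Slco2a1 windows of these 5 held TATAAA, which 14.2% of all 33469 RefSeq rat promoter windows of this length held. In Snhg4 it overlapped itself on both strands after the start, and in Slco2a1 it lay before the start. GGGCGG was held by the Gpx3, Ctsl, Akr1b8 and Slco2a1 windows, against 33.1% of all windows, and CCAAT by Gpx3 and Ctsl, against 37.5%. The Ctsl window held 30 CG pairs and 66.7% G or C, and the Snhg4 window held 1 CG pair and 41% G or C, around a median of 51.7% G or C over all windows.

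All 14 kidney marker genes were above 0 in all 3 libraries. They summed to 6660 FPKM (fragments scaled to transcript length and library size) in Dahl S, 8520 in SHR and 7415 in Dahl R. Most of that sum was Umod, with 4028, 5783 and 4475 FPKM, whereas the proximal tubule genes Slc34a1, Slc22a6, Slc5a2, Lrp2 and Cubn were lowest in SHR. Other lists moved between the libraries. The 4 matched red blood cell genes of 5 summed to 12880 FPKM in Dahl S, 2968 in SHR and 5329 in Dahl R. The 5 matched adipocyte genes of 6 summed to 153 FPKM in Dahl S, 457 in SHR and 114 in Dahl R, and the 6 clock genes to 121, 388 and 310 FPKM in the same order. Dbp and Nr1d1 carried the clock sum, and 2 of its genes went the other way, Arntl with 12.5 FPKM in Dahl S, 4.34 in SHR and 6.42 in Dahl R, and Npas2 with 8.13, 3.10 and 3.91 FPKM. The 3 matched kidney injury genes of 4 summed to 202 FPKM in Dahl S, 85.4 in SHR and 118 in Dahl R, the 3 macrophage genes to 340, 295 and 290 FPKM, and the 3 T cell genes to 6.68, 1.60 and 10.5 FPKM, with Cd3d listed at 0 in SHR. Clu carried the injury sum, with 173 FPKM in Dahl S, 75.1 in SHR and 106 in Dahl R, and Havcr1 stood at 7.64, 0.340 and 0.653 FPKM. Lyz2 carried the macrophage sum, with 283, 262 and 246 FPKM, whereas Csf1r and Cd68 were lowest in SHR. The 4 adrenal genes summed to at most 2.12 FPKM, the 2 matched liver genes of 3 to at most 0.741 and the 2 matched muscle genes of 3 to at most 10.4. The part of these cell types and of the clock in the differences below was not tested, and in whole kidney fewer cells of a type and less RNA per cell cannot be told apart.

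Lone long non-coding records were mostly short and scattered. Their median locus span was 1033 bases with quartiles of 742.5 and 1378, against a median of 9856 bases for the 17963 protein-coding records alone at their locus. Identifiers beginning FQ, of a collection of cDNA clones, made up 1099 of them, XR identifiers (RefSeq model transcripts) 100 and BC identifiers (full-length cDNA clones) 96. The plus strand held 695 and the minus strand 704. Chromosomes 1 and 2 had the highest counts, with 132 and 131, which were 3.18% and 5.74% of all records there. A further 114 lay on unplaced or random sequence. In 114 cases another record carried the same identifier with a suffix, so that copies may share reads. Singletons made up 1202 groups when records under 50 kb apart with no coding locus between them were joined, beside 76 pairs, 11 triplets and 3 groups of 4.

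Most lone long non-coding records were listed above 0, at low levels. FPKM was above 0 in all 3 libraries for 1053 records, in 2 for 164, in 1 for 109 and in none for 73. By strain, 1206 were above 0 in Dahl S, 1207 in SHR and 1183 in Dahl R. The deposited lower confidence limit was above 0 in all 3 libraries for 721. The median level was 0.956 FPKM in Dahl S, 0.940 in SHR and 0.868 in Dahl R, and these were close together. Lone protein-coding records had medians of 2.90, 2.87 and 2.76 FPKM in the same libraries. Long non-coding records that shared a coding locus had medians of 0.947, 0.784 and 0.775 FPKM. A mean over the 3 libraries of at least 0.5 FPKM, the minimum for comparing strains, was reached by 808 lone records (57.8%), and a mean of at least 5 FPKM by 449 (32.1%).

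A few records held much of the total. Of the summed FPKM of each library, the lone long non-coding records held 3.61% in Dahl S, 2.59% in SHR and 3.06% in Dahl R. A single record, FQ220900 (chr10:40318802-40319382, in the build of the files, which the sources used here do not name), took 45.6% of that amount in Dahl S, 32.7% in SHR and 42.0% in Dahl R. It stood at 13887 FPKM in Dahl S, 7536 in SHR and 10805 in Dahl R. Its deposited limits ran from 0 to 29429, 16009 and 22826 FPKM in that order, so the authors' own estimate was loose and the libraries were not separated. FQ220900 begins 142 bases beyond the end of Gpx3 on the same strand. Gpx3 encodes the secreted glutathione peroxidase that the proximal tubule releases into plasma. Gpx3 itself stood at 2869 FPKM in Dahl S, 1433 in SHR and 2099 in Dahl R, in the same order of strains as its neighbour. The ratio of the record to Gpx3 was 4.84 in Dahl S, 5.26 in SHR and 5.15 in Dahl R.

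Where a record lay relative to a coding gene went with its level. Of the lone long non-coding records, 719 lay under 5 kb from a coding locus, 358 at 5 to 50 kb and 208 farther away, and 114 were on sequences with no coding locus. Records under 5 kb away had medians of 4.42 FPKM in Dahl S, 4.07 in SHR and 3.96 in Dahl R. Records at 5 kb or more had medians of 0.333, 0.265 and 0.246 FPKM in the same libraries. The mean passed 0.5 FPKM for 76.4% of the near records and for 36.2% of the far ones. These are descriptions of the annotated classes, since records of 1 library are not replicates and no test between classes was made.

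Among near records the level went with the side as well. Where a record had several lone coding records under 5 kb, the 3′ side was taken before the 5′ side. The 434 records on the 3′ side of a lone coding record and on its strand had medians of 6.98 FPKM in Dahl S, 6.95 in SHR and 6.32 in Dahl R, and 84.3% passed the minimum. The 62 records on the 3′ side of the opposite strand had medians of 2.07, 2.21 and 2.16 FPKM. The 54 records on the 5′ side of the opposite strand, the place of divergent transcripts, had medians of 0.791, 0.662 and 0.715 FPKM. The 51 records on the 5′ side of the same strand had the lowest medians of the near classes, 0.266, 0.330 and 0.230 FPKM, and 39.2% passed the minimum. The coding neighbours of these 4 classes had similar median levels, 9.23, 8.94, 7.80 and 7.58 FPKM over the 3 libraries. Another 118 records had a near coding locus that was itself shared or overlapping, and their medians were 5.34, 4.75 and 4.61 FPKM.

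**Figure D1:**
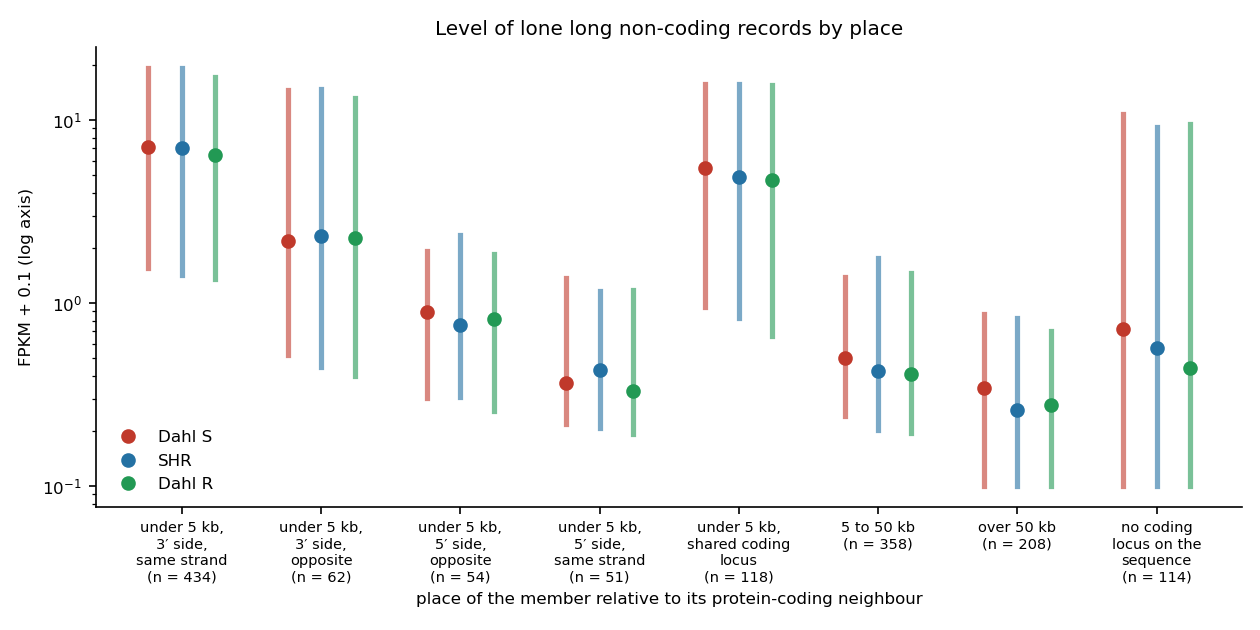
FPKM plus 0.1 (log axis) of the lone long non-coding records, grouped by distance to the nearest coding locus. Those under 5 kb are split by side and strand of a lone coding record, the 3′ side taken first where there were several. Points are medians and bars the quartiles over the records of a class in the Dahl S, SHR and Dahl R library. The same-strand 3′ class has medians of 6.32 to 6.98 FPKM and the class over 50 kb away medians of 0.160 to 0.244 FPKM, in all 3 libraries.

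Records beyond the end of a gene often stood at the level of that gene. On the 3′ side of the same strand, the median ratio of a record to its coding neighbour was 1.05 over the 3-library means, and it was 0.513 on the opposite strand. It was 0.107 for the 5′ side of the opposite strand and 0.0620 for the 5′ side of the same strand. Where both passed 0.5 FPKM, 227 of 363 same-strand 3′ records (62.5%) were within 2-fold of their neighbour, and 26 of 86 records on other sides (30.2%) were. Levels of record and neighbour had a Spearman rho of 0.56 over the 434 same-strand 3′ pairs. It was 0.66 for the 178 pairs under 1 kb apart and 0.48 for the 256 pairs at 1 to 5 kb. For the 286 pairs at 5 to 50 kb it was 0.11, and for the 155 pairs over 50 kb apart 0.18. Both members of a pair come from the same libraries and the same stretch of genome. Whether such a record and its neighbour lie on the same transcript was not tested.

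**Figure D2:**
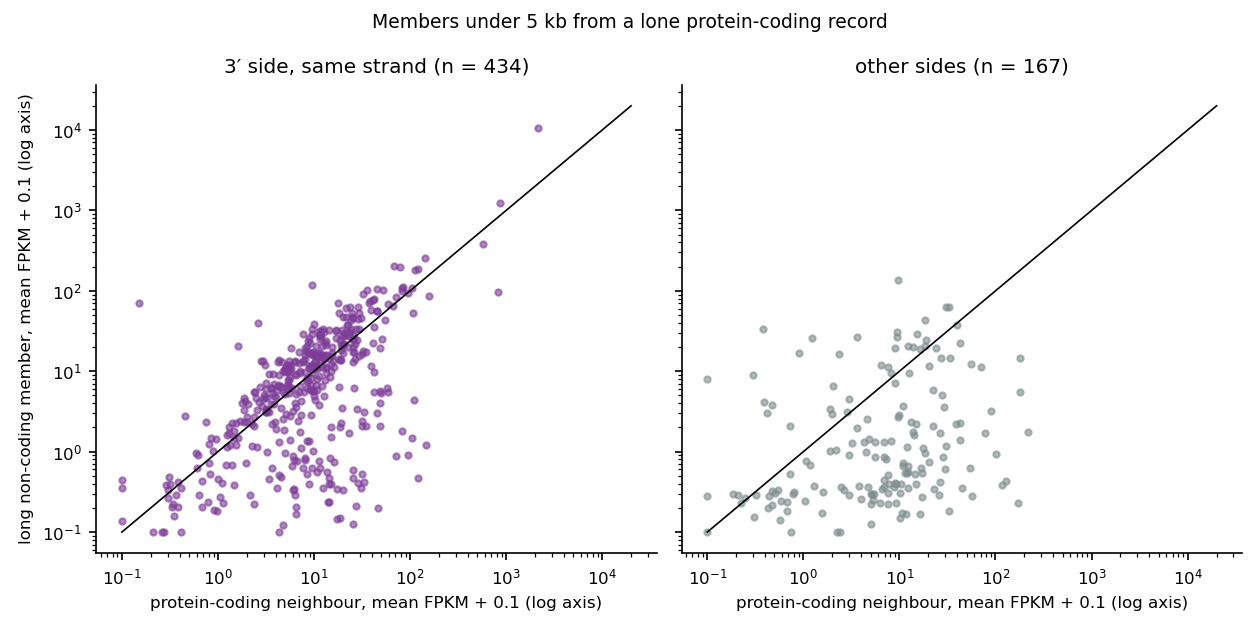
Mean FPKM over the 3 libraries plus 0.1 of each lone long non-coding record (vertical, log axis) against that of its coding neighbour under 5 kb away (horizontal, log axis). Points are records and the line marks equal levels. The 434 same-strand 3′ records on the left gather along the line, with a median ratio of 1.05, and the 167 records on other sides on the right lie mostly below it, with a median ratio of 0.143.

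The abundant end of the list showed the same arrangement. Of the 15 records with the highest means and a span of at least 300 bases, 9 lay on the 3′ side of a coding gene on its strand, 3 on unplaced or random sequence and the other 3 at 5 to 50 kb from a coding gene. FQ218045 (chr2:52461648-52462262) begins 181 bases beyond Sepp1, which encodes the selenium carrier selenoprotein P. It stood at 1475 FPKM in Dahl S, 949 in SHR and 1297 in Dahl R, beside 1012, 603 and 971 FPKM for Sepp1. SHR was the lowest of the 3 libraries for both, and the limits of FQ218045 overlapped between strains. FQ212168 (chr11:24457158-24457682) lies 83 bases beyond App, the amyloid precursor gene. It stood at 408 FPKM in Dahl S, 394 in SHR and 355 in Dahl R, nearly level, beside 572, 605 and 540 FPKM for App.

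Other abundant records were level between strains or differed by less than 2-fold. FQ217471, 1658 bases beyond Epas1, the hypoxia-inducible factor HIF-2 alpha, stood at 205 FPKM in Dahl S, 206 in SHR and 203 in Dahl R. FQ234572, 198 bases beyond the splicing factor gene Sfrs2, stood at 178 FPKM in Dahl S, 189 in SHR and 183 in Dahl R. FQ229953, 677 bases beyond the gene of 14-3-3 protein zeta, stood at 190, 191 and 183 FPKM in the same order. FQ227326, 934 bases beyond biglycan (Bgn, a matrix proteoglycan), stood at 310 FPKM in Dahl S, 241 in SHR and 214 in Dahl R, with overlapping limits. FQ221495, 299 bases beyond the C-type lectin gene Clec2g, was far above its neighbour, with 128 FPKM in Dahl S, 132 in SHR and 94.4 in Dahl R beside 10.2, 10.9 and 7.32 FPKM. Of the 15 most abundant records, 14 were 2-fold apart in no comparison.

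The exception was FQ221838, which lies on chromosome 1, 9497 bases from Frmd8. It stood at 261 FPKM in Dahl S, 408 in SHR and 192 in Dahl R, with SHR highest. Its log2 ratio of SHR over Dahl R was 1.09, with overlapping deposited limits of 198 to 618 FPKM in SHR and 116 to 267 in Dahl R. Frmd8 stood at 34.9, 29.2 and 31.5 FPKM in Dahl S, SHR and Dahl R and did not share the order. Nearer, at 3443 bases on the same strand, lies a locus shared by 2 long non-coding records, looked at after the values were seen. Of these, FQ220935 had the order of FQ221838, with 3.91, 7.49 and 2.82 FPKM. Its log2 ratio of SHR over Dahl R was 1.15, with limits apart (5.09 to 9.90 against 1.69 to 3.96 FPKM). The other, AB072252, did not share that order, with 2.34, 1.88 and 2.09 FPKM.

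Among the 208 records over 50 kb from a coding locus, those with the highest means were at nearly equal levels in the 3 libraries. XR_085830 (chr4:154051035-154068977) stood at 94.7 FPKM in Dahl S, 81.5 in SHR and 90.6 in Dahl R. FQ212790, 172275 bases from Nr4a2, stood at 68.5, 74.5 and 68.1 FPKM, and FQ234228 (chr13:63042539-63042950) at 61.3, 71.0 and 68.7 FPKM. XR_086096 (chr19:56546147-56546736) stood at 62.1, 56.8 and 54.2 FPKM and FQ219731 (chr14:101261414-101268311) at 41.5, 39.7 and 48.7 FPKM. The log2 ratio farthest from 0 among these 5 records was -0.29, for FQ219731 in SHR over Dahl R.

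Snhg4 (chr18:28181052-28181289 in the files' build) was the only lone record found on a list of known long non-coding RNA symbols. It stood at 11.6 FPKM in Dahl S, 11.8 in SHR and 11.6 in Dahl R, and its span was 238 bases. Matr3, which encodes the nuclear matrix protein matrin 3, begins 5081 bases away in a locus shared by 3 records, and stood at 8.02, 6.59 and 8.07 FPKM. The nearest small nucleolar RNA record, SNORA74, 470 bases away, stood at 9.87, 29.4 and 17.8 FPKM, a different order from that of Snhg4.

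For the comparison of strains, a record was counted as 2-fold apart when the log2 ratio of FPKM plus 1 was at least 1 in size and its mean over the libraries at least 0.5 FPKM. With 1 library per strain there is no spread between animals and no p-value, so for each record it was also noted whether the deposited limits of both libraries were apart. Of the 808 records past the minimum, 84.2% had a log2 ratio under 0.5 in size for Dahl S against Dahl R, 82.3% for Dahl S against SHR and 80.9% for SHR against Dahl R. Of the 12017 lone protein-coding records past it, 89.2%, 85.0% and 87.3% did, somewhat more in each comparison. In the 3 comparisons together, 51 records were 2-fold apart in at least 1, 26 of them with limits apart, and 757 in none. The matching share over all records was not computed for the 3 comparisons together, and shares per comparison follow.

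For Dahl S against Dahl R, 14 of 808 lone long non-coding records (1.73%) were 2-fold apart, where 5.34% of all 20404 measured records were. Of these 14, 4 were higher in Dahl S (background 3.08%) and 10 lower (background 2.26%), and in 5 the limits were apart (background 1.76%), 2 higher (background 0.936%) and 3 lower (background 0.828%). With a pseudocount of 0.1 in place of 1, 41 were higher in Dahl S and 31 lower, so the lean towards lower did not hold. The shares over all records with that pseudocount were not computed. For Dahl S against SHR, 29 (3.59%) were 2-fold apart, where 6.22% of all records were. There 17 were higher in Dahl S (background 3.38%) and 12 lower (background 2.84%), and in 15 the limits were apart (background 2.66%), 8 higher (background 1.41%) and 7 lower (background 1.25%). For SHR against Dahl R, 23 (2.85%) were 2-fold apart, where 5.20% of all records were. There 13 were higher in SHR (background 2.93%) and 10 lower (background 2.26%), and in 10 the limits were apart (background 2.48%), 5 higher (background 1.40%) and 5 lower (background 1.09%). The 3 comparisons share libraries with each other.

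These shares were nearer to those of lone coding genes than to those of other long non-coding records. Lone protein-coding records were 2-fold apart in 1.68% of cases for Dahl S against Dahl R, 2.55% for Dahl S against SHR and 2.27% for SHR against Dahl R. Long non-coding records that shared a coding locus had 7.99%, 10.6% and 7.58%, and those that shared a non-coding locus 13.3%, 12.5% and 12.1%. The median log2 ratio of the lone long non-coding records was 0.09 for Dahl S over Dahl R, 0.02 for Dahl S over SHR and 0.07 for SHR over Dahl R, beside 0.05, 0.01 and 0.03 over all measured records. Among those 2-fold apart, 5, 10 and 10 had a span under 300 bases. M18843_1, with a span of 51 bases, was listed at 0 in Dahl S and SHR and at 6.78 FPKM in Dahl R, with a lower limit of 0.

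**Figure D3:**
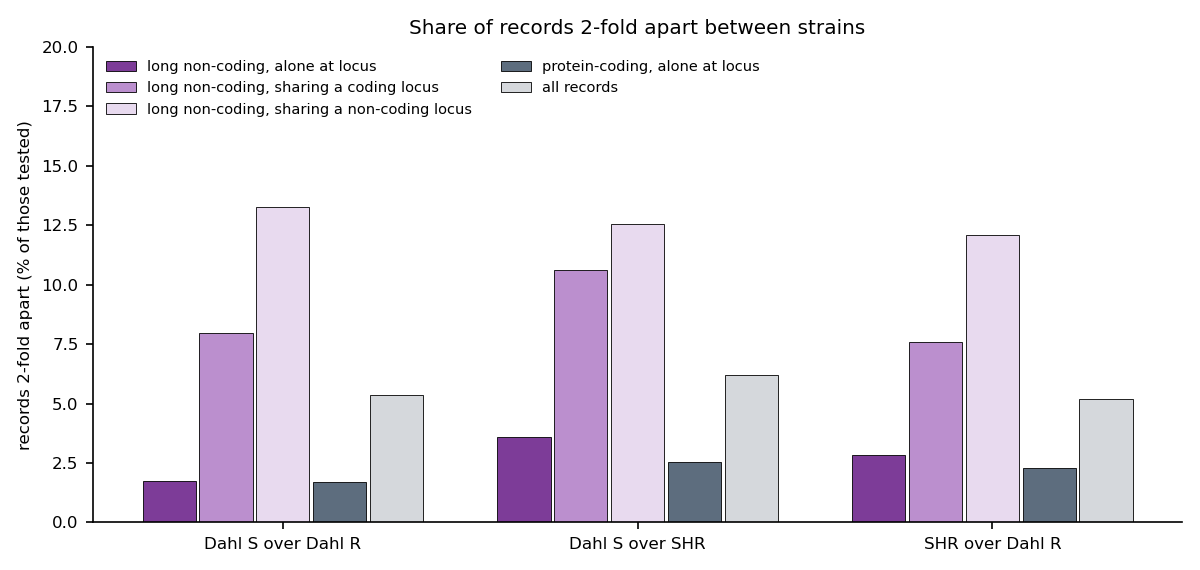
Share of measured records (percent, vertical axis) that were 2-fold apart in each of the 3 comparisons, by class of record. The leftmost bar of each group, the lone long non-coding records, is at 1.73, 3.59 and 2.85%, close to lone protein-coding records and below the other long non-coding classes and all records.

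The ratios of records beyond the end of a gene went with those of the gene to a limited degree. Over the 363 same-strand 3′ pairs with both levels past 0.5 FPKM, Pearson's r between the log2 ratio of the record and that of its neighbour was 0.24 for Dahl S over Dahl R, 0.47 for Dahl S over SHR and 0.43 for SHR over Dahl R. For the 86 pairs on other sides it was -0.17, -0.01 and -0.09. Of the same-strand 3′ records that were themselves 2-fold apart, the neighbour had a ratio of the same sign in 4 of 6, 11 of 13 and 5 of 11 cases, in the same order of comparisons, and was itself 2-fold apart that way in 0, 1 and 3. The pairs share their 2 libraries, so these values describe the libraries and not the strains.

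**Figure D4:**
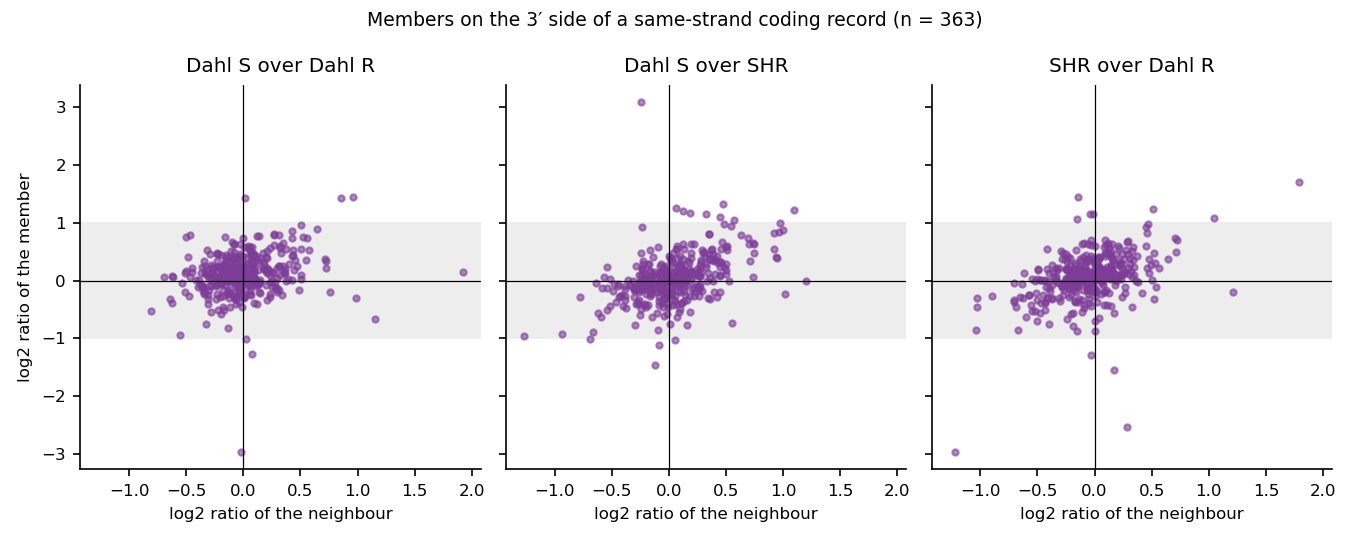
Log2 ratio between strains of each same-strand 3′ record (vertical) against that of its coding neighbour (horizontal), for 363 pairs and the 3 comparisons. The grey band marks ratios under 1 in size. Most points lie in the band, and the point at 3.09 in the middle panel is FQ210070, whose neighbour has a ratio of -0.24.

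Higher in Dahl S by 2-fold than in both other strains, with limits apart from both, was 1 record. For this count and those of the same kind for SHR and Dahl R below, the share over all records was not computed. FQ222763 (chr17:6294632-6294950) begins 481 bases beyond Ctsl1, which encodes cathepsin L, a lysosomal cysteine protease. It stood at 163 FPKM in Dahl S, 69.3 in SHR and 60.1 in Dahl R. The Dahl S limits of 113 to 212 FPKM lay above those of SHR (47.1 to 91.5) and of Dahl R (39.7 to 80.5). The log2 ratio was 1.22 over SHR and 1.42 over Dahl R. Ctsl1 was likewise highest in Dahl S, with 1227 FPKM against 574 in SHR and 679 in Dahl R, log2 ratios of 1.09 and 0.85, but its limits overlapped between Dahl S (672 to 1783) and both SHR (344 to 805) and Dahl R (403 to 954). The record stood at 0.133 of the level of Ctsl1 in Dahl S, 0.121 in SHR and 0.0885 in Dahl R.

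FQ212409 (chr9:82574994-82575938) was higher in Dahl S than in Dahl R, with limits apart. It stood at 2.64 FPKM in Dahl S, 1.03 in SHR and 0.338 in Dahl R, a log2 ratio of Dahl S over Dahl R of 1.44. It lies 633 bases beyond Sphkap, an anchor protein of protein kinase A, which stood at 1.75 FPKM in Dahl S, 0.413 in SHR and 0.410 in Dahl R. Both were highest in Dahl S, at low levels.

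Lower in SHR by 2-fold than in both other strains, with limits apart, were 2 records. FQ210070 (chr20:5002207-5003423) had the largest ratio of those with limits apart. It stood at 29.6 FPKM in Dahl S, 2.58 in SHR and 19.8 in Dahl R, so that Dahl S over SHR was 3.09 and SHR over Dahl R -2.54 on the log2 scale. The SHR limits, 1.42 to 3.75 FPKM, lay far under those of Dahl S (20.3 to 38.8) and Dahl R (13.5 to 26.0). It begins 1237 bases beyond a record described as RT1 class I, locus A3, a gene of the rat major histocompatibility complex. That neighbour stood at 24.7 FPKM in Dahl S, 29.5 in SHR and 24.1 in Dahl R and was not lower in SHR. RT1-A2, on the other side at 13705 bases, stood at 90.6, 58.4 and 82.4 FPKM. Class I genes of this region are near-identical copies that differ between strains, so reads can be split or lost among them, and the values are uncertain to that extent. Whether this bears on the SHR value of FQ210070 was not tested.

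BC086450 (chr15:57833871-57921109) spans 87239 bases with no coding record within 277498 bases. It stood at 12.2 FPKM in Dahl S, 1.33 in SHR and 6.34 in Dahl R, and the limits of SHR (0.591 to 2.07) were under those of Dahl S (7.70 to 16.7) and Dahl R (3.83 to 8.86). The log2 ratio of Dahl S over SHR was 2.5 and that of SHR over Dahl R was -1.65. The nearest coding gene, Serp2, was at 1.73, 1.09 and 1.08 FPKM. Tsc22d1, a leucine zipper transcription regulator 331056 bases away and noticed after its values were seen, stood at 259 FPKM in Dahl S, 107 in SHR and 145 in Dahl R, also lowest in SHR.

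Higher in Dahl R by 2-fold than in both other strains, with limits apart, was FQ226022 (chr1:15203162-15204111). It stood at 1.16 FPKM in Dahl S, 1.08 in SHR and 3.95 in Dahl R, with log2 ratios of -1.20 for Dahl S over Dahl R and -1.25 for SHR over Dahl R. The coding record beside it, RGD1306565 at 1249 bases, stood at 6.60, 9.94 and 5.86 FPKM and was not highest in Dahl R. By the same rule of 2-fold and limits apart, no lone record was lower in Dahl S than in both others, higher in SHR than in both others or lower in Dahl R than in both others.

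**Figure D5:**
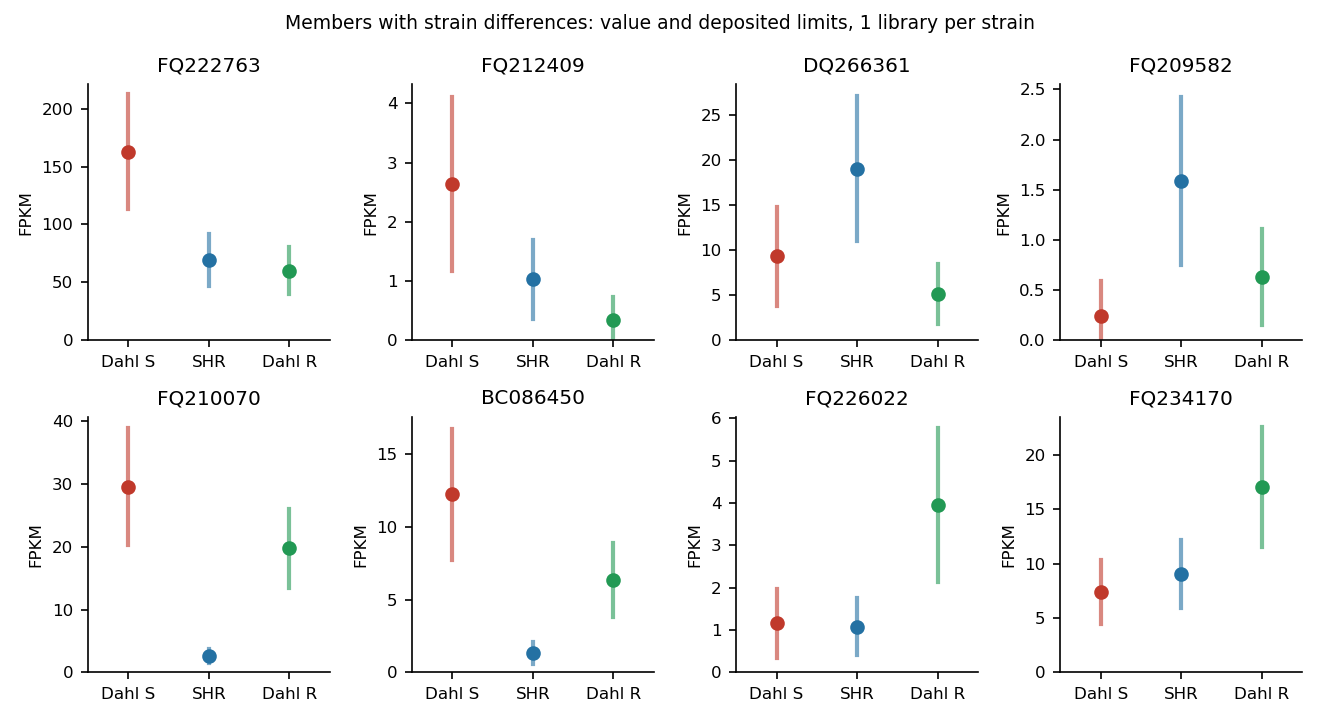
FPKM (vertical axes, from 0) of 8 lone long non-coding records in the Dahl S, SHR and Dahl R library. Points are the deposited values and bars the deposited lower and upper limits, with 1 library per strain. FQ222763 is highest in Dahl S (163 FPKM), FQ210070 and BC086450 are lowest in SHR (2.58 and 1.33), FQ226022 is highest in Dahl R (3.95), and DQ266361 is highest in SHR (19.1).

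In Dahl S against Dahl R, FQ234170 was the only record 2-fold apart whose near coding neighbour was 2-fold apart in the opposite direction. FQ234170 (chr7:113313436-113353231) lies in a cluster of Ly6 genes, which encode small surface proteins anchored by a lipid. It stood at 7.40 FPKM in Dahl S, 9.04 in SHR and 17.1 in Dahl R, a log2 ratio of Dahl S over Dahl R of -1.11 with limits apart. Ly6b, which begins 2439 bases away on the opposite strand, stood at 117 FPKM in Dahl S, 76.8 in SHR and 20.4 in Dahl R, with a log2 ratio of 2.46. Of the 3 nearest records on each side, 3 were highest in Dahl R as FQ234170 was. LOC300024 stood at 15.9 FPKM in Dahl S, 12.5 in SHR and 39.0 in Dahl R, RGD1565410 at 6.76, 6.56 and 12.8 FPKM and D3ZPQ1_RAT at 20.6, 23.8 and 186 FPKM in the same order. Ly6b, Ly6c and a pseudogene were lowest in Dahl R. These flanking records were looked at after the values of FQ234170 were seen. The last of the 5 records with limits apart in this comparison, FQ226809 on chromosome 9, stood at 0.133 FPKM in Dahl S, 0.502 in SHR and 1.33 in Dahl R.

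Other records higher in Dahl S than in SHR, with limits apart, had log2 ratios of at most 1.33. FQ233537, 678 bases beyond the complement receptor gene C3ar1, stood at 4.87 FPKM in Dahl S, 1.33 in SHR and 2.94 in Dahl R, with a log2 ratio of Dahl S over SHR of 1.33. C3ar1 stood at 3.57, 2.30 and 3.35 FPKM, in the same order. FQ210651, on unplaced sequence, stood at 25.7 FPKM in Dahl S, 9.88 in SHR and 13.5 in Dahl R, a log2 ratio of 1.29. FQ216662, 3771 bases beyond Rragd (a Rag GTPase of nutrient signalling), was listed at 1.303 FPKM in Dahl S, at 0 in SHR and at 0.726 in Dahl R. Rragd was level at 11.2, 10.2 and 11.8 FPKM.

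Records lower in Dahl S than in SHR, with limits apart, stood under 3 FPKM in every library with a single exception. FQ217963 (chr13:106417793-106418759) was that exception, with 2.37 FPKM in Dahl S, 6.47 in SHR and 3.47 in Dahl R and a log2 ratio of -1.15. Prox1, whose locus another record shares, ends 2781 bases away on the same strand and stood at 3.49, 6.44 and 4.16 FPKM, also highest in SHR. LOC498308, 125 bases away on the opposite strand, stood at 0.214, 0 and 0.639 FPKM. Prox1 was looked at after the values were seen. FQ231988, 615 bases beyond the gene of heterochromatin protein 1-binding protein 3, stood at 0.188, 1.58 and 0.637 FPKM, whereas that gene was at 88.5, 93.9 and 100.3 FPKM. FQ231489, 176426 bases from the next coding gene, stood at 0.161, 1.54 and 0.493 FPKM. FQ230839 was listed at 0 in Dahl S, at 1.04 FPKM in SHR and at 1.01 in Dahl R.

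FQ209582 (chr8:108008556-108012029) lies on the opposite strand and on the 5′ side of Slco2a1, 799 bases from it. Slco2a1 encodes a prostaglandin transporter. FQ209582 stood at 0.245 FPKM in Dahl S, 1.59 in SHR and 0.632 in Dahl R, with a log2 ratio of Dahl S over SHR of -1.06 and limits apart. Slco2a1 stood at 14.997 FPKM in Dahl S, 43.7 in SHR and 14.2 in Dahl R, with a log2 ratio of Dahl S over SHR of -1.48. Both were highest in SHR. The locus of Slco2a1 is shared with a small nucleolar RNA record that was listed at 0 in the 3 libraries. The pair was set side by side after the values were seen, and reads of the 2 strands cannot be told apart in a library that does not mark strand.

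In SHR against Dahl R, DQ266361 (chr4:61726886-61727127), also chosen after its values were seen, had a ratio close to that of its neighbour. It begins 29 bases beyond Akr1b8, an aldo-keto reductase gene, and spans 242 bases. It stood at 9.32 FPKM in Dahl S, 19.1 in SHR and 5.14 in Dahl R, and the SHR limits of 11.0 to 27.1 FPKM were above the Dahl R limits of 1.81 to 8.48. Its log2 ratio of SHR over Dahl R was 1.71. Akr1b8 stood at 3.61, 10.1 and 2.21 FPKM, a log2 ratio of SHR over Dahl R of 1.79. The record stood at 2.58, 1.89 and 2.33 times the level of Akr1b8 in Dahl S, SHR and Dahl R. Akr1b1, the aldose reductase gene 67355 bases away, was at 62.0, 118 and 59.4 FPKM, and also highest in SHR. On the other side, Akr1b10 at 30452 bases stood at 5.04 FPKM in Dahl S, 3.09 in SHR and 3.09 in Dahl R, and Akr1b7 at 67081 bases at 2.75, 0.596 and 0.539 FPKM. Both were highest in Dahl S.

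Other records higher in SHR than in Dahl R with limits apart were at low levels. FQ213587, 599 bases beyond the bicarbonate exchanger gene Slc4a10, stood at 1.63 FPKM in Dahl S, 2.67 in SHR and 0.547 in Dahl R, beside 1.05, 1.66 and 0.860 FPKM for Slc4a10. FQ233114, FQ227235 and FQ211705 had log2 ratios of 1.15, 1.07 and 1.18 for SHR over Dahl R, with 3.41, 1.72 and 1.59 FPKM in SHR. The neighbour of FQ233114, D3ZS75_RAT, had a ratio of -0.01. XR_086061 (chr17:20258423-20261498) was lower in SHR than in Dahl R, with 1.37 FPKM in SHR and 4.12 in Dahl R, beside 2.996 in Dahl S.

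A pair of lone records on chromosome 7, noticed after their values were seen, lies on the plus strand before the let-7c-2 and let-7b microRNA genes. FQ234913 (chr7:123675518-123675861), 25343 bases before rno-let-7b, stood at 0.895 FPKM in Dahl S, 4.86 in SHR and 4.45 in Dahl R, with overlapping limits. FQ225931, 40090 bases before it, stood at 1.08, 2.24 and 0.542 FPKM. The let-7b record stood at 2.70, 6.15 and 2.03 FPKM, with lower limits of 0. The let-7c-2 record, nearer at 24928 bases from FQ234913, was listed at 0 in all 3 libraries. The next coding gene on that strand is Ppara, a receptor for fatty acids that controls their oxidation, with 4.197, 10.4 and 7.37 FPKM. FQ234913, FQ225931 and Ppara were all highest in SHR, but Dahl R was high for FQ234913 and lowest for FQ225931.

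A few lone records were listed at 0 in a single library while both other libraries had a lower limit above 0. The share of such records over all records was not computed. There were 2 such records for Dahl S (FQ233993 and FQ233929), 2 for SHR (FQ216662 and FQ234780) and 2 for Dahl R (FQ234058 and FQ233594). FQ233993 was listed at 0.519 FPKM in SHR and 0.513 in Dahl R, and FQ234780 at 0.744 FPKM in the Dahl S library and 0.837 in that of Dahl R. FQ234058, 765 bases from Snx7, was listed at 0.865 FPKM in Dahl S and 0.661 in SHR. Their highest value in any library was 1.303 FPKM, so that all 6 were at low levels where they were listed above 0.

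Precision followed level. For lone records of 0.5 to 1 FPKM, the deposited upper limit lay 89.4% above the value in Dahl S, 70.7% in SHR and 75.6% in Dahl R (medians). For records of at least 20 FPKM the distances were 32.1%, 30.5% and 31.1%. The longest loci held little: FQ233734 (307994 bases, unplaced sequence) was listed at 0 in all 3 libraries, and FQ229717 (191127 bases) and FQ213340 (121210 bases) stayed under 0.5 FPKM in each. Of the shortest, L37956_2 (60 bases) was listed at 0 throughout. FQ221774 has a listed span of 1 base beside locus bounds that run to base 2229 of random sequence of chromosome 20, so its length is uncertain, and it stood at 20.02 FPKM in Dahl S, 22.3 in SHR and 19.3 in Dahl R. The 4 neighbouring records of a group on chromosome 2 (chr2:12053922-12167683) summed to 0.277, 0.600 and 0.733 FPKM. The 3 of a group on random sequence of chromosome 11 summed to 35.4, 35.7 and 34.6 FPKM, mostly from BC061998, and were level across strains.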

How the data were processed

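Kidney RNA depleted of ribosomal RNA was sequenced in 3 libraries, 1 per strain. The authors deposited FPKM values with lower and upper confidence limits in FPKM, per the file headers. The submitters' processing notes name TopHat 1.3.1 and Cufflinks 1.0.3. The sources used here name no genome build, annotation release, read total or confidence level, nor whether strand was used. Depth is therefore unknown, and the width of the deposited limits stands for precision. File starts are counted from 0, since the listed span equalled the RefSeq hairpin length for 166 of 175 lone microRNA records, and 1 was added.

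Members were the records marked lncRNA whose locus string occurs once outside the mitochondrial chromosome. A log2 ratio at least 1 in size, computed after adding a pseudocount of 1 to FPKM, and with a mean of at least 0.5 FPKM over the 3 libraries, was counted as 2-fold apart. The rule was tried on simulated data. There, records of at least 5 FPKM were multiplied by 2 in 1 library and divided by 2 in the other. The simulation therefore does not bear on smaller differences or on lower levels. A coding neighbour under 5 kb is a lone coding record. Where there were several, the 3′ side came before the 5′ side, and distance came last. On the 3′ side the same strand came first, and on the 5′ side the opposite strand. With none under 5 kb, the nearest coding locus was used if it held a lone coding record. Distances are between locus bounds.

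Records were named by rule: the 15 highest means, up to 6 per direction and comparison with limits apart and a span of at least 300 bases, those apart from both other strains, those listed at 0 in a single library, the 5 highest near and far from coding genes, the longest and shortest, the largest groups and known symbols. Members and lists were chosen with earlier results of these data known. Alternatives were other pseudocounts, minimum means, scalings, spans, limits and distances. Python 3.11.15, numpy 2.4.6, pandas 2.3.3 and scipy 1.17.1 were used.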

Additional observations from a re-analysis of the deposited data

How the results depend on the processing

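No paired analysis was possible because each strain has 1 library. The count of lone long non-coding records 2-fold apart moved most with the pseudocount. With 0.1 it was 72 for Dahl S against Dahl R, 75 for Dahl S against SHR and 92 for SHR against Dahl R, and with 5 it was 3, 4 and 4. A minimum mean of 5 FPKM left 3, 8 and 8 of 449 tested, and a minimum of 1 FPKM left 19 of 685 for Dahl S against SHR. Spans of at least 300 bases left 9, 19 and 13 of 742, and limits apart 5, 15 and 10 of 808. Among records with no other record within 5 kb the counts were 4, 10 and 8 of only 216, or 1.85, 4.63 and 3.70%. Those shares were not below the main shares of 1.73, 3.59 and 2.85%. The same-strand 3′ records under 5 kb from a coding gene were also left out, an alternative chosen after seeing the data. The counts were then 8, 16 and 12 of 442, or 1.81, 3.62 and 2.71%. The 3 other scalings moved no count by over 1.5 times, and no minimum mean and leaving out copies (the latter chosen after seeing the data) did not either. Except for limits apart, the shares over all records were not computed under these alternatives. Whether the shares of lone long non-coding records stayed below those of all records there was not tested. Of 24 named log2 ratios, 18 fell under 1 in size with a pseudocount of 5.

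Among the records with no other record within 5 kb, 371 of 597 were above 0 in all 3 libraries, and the medians were 0.333 FPKM in Dahl S, 0.254 in SHR and 0.231 in Dahl R. With a distance limit of 2 kb, chosen after seeing the data, the median of records beyond it was 0.376 FPKM, against 0.302 with 5 kb. With 1 library per strain and deposited limits that are wide at low levels, differences under 2-fold were not counted as apart. Where an order of strains is given for such differences, it describes the libraries only.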
